A study of Mus musculus with 19 samples.

Results

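Myc and 5 nutrient transporters, Slc2a1, Slc2a3, Slc7a5, Slc3a2 and Slc1a5, were followed in mouse thymocytes by name, as 6 of the 28692 genes of the deposited count matrices. Beside them stood the CD71 antibody, 1 of 111 antibodies in the panel, and Tfrc, the gene that encodes CD71. No antibody to CD98, the heavy chain made from Slc3a2, was among the 111. RNA and surface protein were counted in the same cells by CITE-seq, in which antibodies carry DNA barcodes that are sequenced with the cell's mRNA.

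The thymocytes came from 17 female mice aged 4 to 8 weeks, in 19 lanes. They were 5 wild-type C57BL/6 (B6) mice and 2 mice of each of 6 lineage-restricted genotypes. CD4-fated mice were AND (a TCR transgene on a Rag1-/- background), OT-II (a TCR transgene, no Rag1 cross named) and MHCI-/- (B2m-/-, with diverse TCRs). CD8-fated mice were F5 (TCR chains driven by CD2 sequences, on a Rag1-/- background), OT-I (a TCR transgene, no Rag1 cross named) and MHCII-/- (H2-Ab1-/-, with diverse TCRs). Cells of the MHCI-/- and MHCII-/- mice and of wild-type replicates 1, 2 and 3 were sorted as CD5+TCRβ+, and the rest were total thymocytes. The work was done in 3 experiments: AND, F5 and sorted wild-type mice were in experiments 1 and 2, the MHC-deficient mice in experiment 2, and OT-I, OT-II and unsorted wild-type replicates 4 and 5 in experiment 3. OT-I and OT-II were in experiment 3 alone, so these transgenes cannot be told apart from that experiment except through wild-type replicates 4 and 5. Small numbers of cells of the other lineage are known to arise in the MHC-deficient mice and in OT-I and OT-II mice.

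Myc is a transcription factor that pairs with Max and drives genes of ribosome production, polyamine synthesis and metabolism, and in T cells it rises with growth and division. Slc2a1 (GLUT1) and Slc2a3 (GLUT3) carry glucose. Slc7a5 (LAT1) carries large neutral amino acids and forms the CD98 transporter with Slc3a2, its heavy chain, which also pairs with other light chains. Slc1a5 (ASCT2) carries glutamine and other neutral amino acids, and CD71 brings in iron bound to transferrin. In the thymus CD71 is known as a marker of dividing immature cells, and signals through the pre-TCR and TCR induce Myc.

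After filters on RNA, protein and doublets, 69117 of 85389 barcodes were kept, with medians of 1494 to 7185 RNA UMIs per cell among the lanes. Barcode letters shared with another lane were found for 1390 cells, at most 15 between any pair of lanes. AND replicate 2 stood apart because only 42.1% of its barcodes passed. Of its 4518 barcodes 4320 passed the RNA filters and 1901 all filters. Its 4484116 antibody UMIs were the fewest of all lanes, so its kept cells are those with more antibody UMIs. The lanes of wild-type replicate 5 and OT-II replicate 2 were the shallowest, with medians of 1494 to 2119. The labels held where they could be checked: B2m was at 46.5 to 48.0 CPM (UMIs per 1000000 UMIs) in the MHCI-/- mice and at 404 to 1258 in the others. H2-Ab1 in myeloid-like cells was at 29.3 to 41.0 CPM in MHCII-/- mice, but it was low in MHCI-/- mice too (101 to 108). It was also low in F5 replicate 1 (10.3) and in wild-type replicates 2 (48.3) and 3 (0), so it checked the label only weakly.

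Cells were clustered without the 6 genes, Tfrc and the gene lists described here, and clusters were named "-like" from marker genes, by a scoring rule set after the clusters were seen. The 13 named classes ran from DN-like (763 cells in 7 mice; CD4-CD8- precursors) and cycling-like (7297 cells, 17 mice) through quiescent DP-like (15343 cells, 17 mice; CD4+CD8+ cells before selection) and signaled DP-like (6636 cells, 17 mice; cells that received a TCR signal) to mature SP-like (5529 cells, 15 mice), with negative selection-like (1945 cells, 12 mice), Treg-like (2314 cells, 12 mice) and smaller classes beside them. The names come from these markers, so their sums only describe the classes. The words beside a name describe the cells it is taken from and were not measured here. Clusters that the rule did not name are in none of the 13 classes. The 9 cycling markers summed to 4805 to 9752 CPM in cycling-like cells and to at most 1095 CPM in the other 6 classes compared, and the 7 myeloid markers had medians of 84.0 to 173 CPM in the 7 classes compared against 14758 in myeloid-like cells. Erythrocyte markers were near 0 in most samples, and the exceptions are given beside the results they touch. Counts were summed per mouse and class before any test, so the mouse is the replicate throughout, and levels below are mean CPM ± SD over mice. A mouse contributed a class where it held at least 20 of its cells.

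The RNA was counted from 3′ ends, where 1 UMI stands for 1 captured molecule, so levels are compared between classes for a gene and not between genes. On GRCm38 (mm10), Myc lies at chr15:61985391-61990374 on the plus strand, Slc2a1 at chr4:119108711-119137983 (plus), Slc2a3 at chr6:122727809-122801640 (minus), Slc7a5 at chr8:121881150-121907694 (minus), Slc3a2 at chr19:8706882-8723369 (minus), Slc1a5 at chr7:16781340-16798274 (plus) and Tfrc at chr16:32608920-32632794 (plus). Slc2a1 overlaps a microRNA gene on its own strand, Slc2a3 overlaps the pseudogene Gm4482 on its own strand, and reads of such pairs may be shared or lost.

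Promoter sequence from RefSeq (GRCm38.p6) was at hand for Slc2a1, Slc3a2 and Tfrc. The 2 stretches upstream of Slc2a1 and Tfrc are shown because Tfrc RNA was high in the classes where Myc was high and Slc2a1 RNA was not. The full Slc2a1 window holds 2 GC boxes and 1 CCAAT box, and a second Tfrc window holds 2 GC boxes, so these boxes do not set the genes apart. Capitals mark a GC box (CCGCCC, which is GGGCGG on the other strand) in the Slc2a1 stretch, chr4:119108495-119108710 on the plus strand, and a CCAAT box in the Tfrc stretch, chr16:32608646-32608895 on the plus strand.
Slc2a1: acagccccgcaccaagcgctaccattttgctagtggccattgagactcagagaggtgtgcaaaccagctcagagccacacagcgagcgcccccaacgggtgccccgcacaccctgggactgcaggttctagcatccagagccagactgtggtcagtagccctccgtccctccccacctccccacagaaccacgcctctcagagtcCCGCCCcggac
Tfrc: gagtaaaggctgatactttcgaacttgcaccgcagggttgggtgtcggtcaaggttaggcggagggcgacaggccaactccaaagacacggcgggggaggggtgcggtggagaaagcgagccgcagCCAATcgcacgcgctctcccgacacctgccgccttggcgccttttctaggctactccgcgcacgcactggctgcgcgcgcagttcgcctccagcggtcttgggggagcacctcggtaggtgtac

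The E-box CACGTG, the motif Myc and Max are known to bind, was searched on both strands, as was the Egr motif GCGTGGGCG. The letters of these motifs and of the GC and CCAAT boxes do not contain one another. Neither CACGTG nor GCGTGGGCG was in any of the 4 windows of these 3 genes, which says only that these letters are not in those windows. Over 32851 promoter windows of the same length, 7.15% held the E-box, 0.612% the Egr motif, 35.7% the GC box and 37.4% the CCAAT box.

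In wild-type mice Myc was highest in DN-like cells, at 167 ± 41.0 CPM (SD, n = 2 mice), and in negative selection-like cells, at 124 ± 32.4 (n = 5). Cycling-like cells followed at 62.6 ± 19.9, and NKT-like, CD8 SP-like, mature SP-like and CD4 SP-like cells lay between 45.6 and 53.1. Treg-like cells were at 31.1 ± 10.8, signaled DP-like cells at 17.2 ± 7.65 and quiescent DP-like cells at 6.95 ± 8.34. Neighbors in this order overlapped between mice at each of the 12 steps, as they did for the other 5 genes, Tfrc and CD71. B-like cells, at 3.95 ± 5.59 (n = 2), had the lowest mean, but this class held 74 cells in 3 mice. Wild-type replicate 5 had no Myc UMI in it, which at 3 counts allows up to 44.9 CPM, so its place in the order is not settled.

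Slc7a5 had a similar order, with negative selection-like cells at 21.4 ± 7.10 CPM, cycling-like cells at 17.3 ± 5.28 and quiescent DP-like cells, the lowest, at 2.05 ± 1.01. Its partner Slc3a2 did not share it. Slc3a2 was highest in signaled DP-like cells, at 131 ± 38.6, and lowest in DN-like cells, at 41.7 ± 1.12 (n = 2), where Myc was highest. Over the mean log2 levels of the 13 wild-type classes, which share their mice and libraries, the Pearson correlation with Myc was 0.899 for Slc7a5 and 0.115 for Slc3a2.

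The glucose transporters had other orders again. Slc2a3 was highest in myeloid-like cells, at 54.9 ± 38.4 CPM (n = 4), then in B-like cells (0 and 59.8 in 2 mice, the latter from 4 UMIs), CD4 SP-like cells at 26.8 ± 9.14, Treg-like cells at 20.3 ± 3.49 and signaled DP-like cells at 20.2 ± 4.32, and lowest in quiescent DP-like (6.95 ± 1.48) and cycling-like cells (6.91 ± 1.40). Slc2a1 ranged from 6.93 ± 2.96 in cycling-like cells to 23.3 ± 11.8 in B-like cells (n = 2, from few UMIs), with signaled DP-like cells at 16.7 ± 6.21. Slc1a5 ranged from 40.2 ± 15.8 in CD4 SP-like to 85.3 ± 30.5 in NKT-like cells. Tfrc was highest in negative selection-like cells (75.0 ± 23.9), DN-like cells (56.8 ± 33.4, n = 2) and cycling-like cells (49.3 ± 28.4), whereas CD71 antibody was highest in cycling-like cells, at 98.2 ± 18.6 per 10000 antibody UMIs, against 35.9 ± 4.88 in negative selection-like cells and 19.0 ± 1.31 in signaled DP-like cells.

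**Figure D1:**
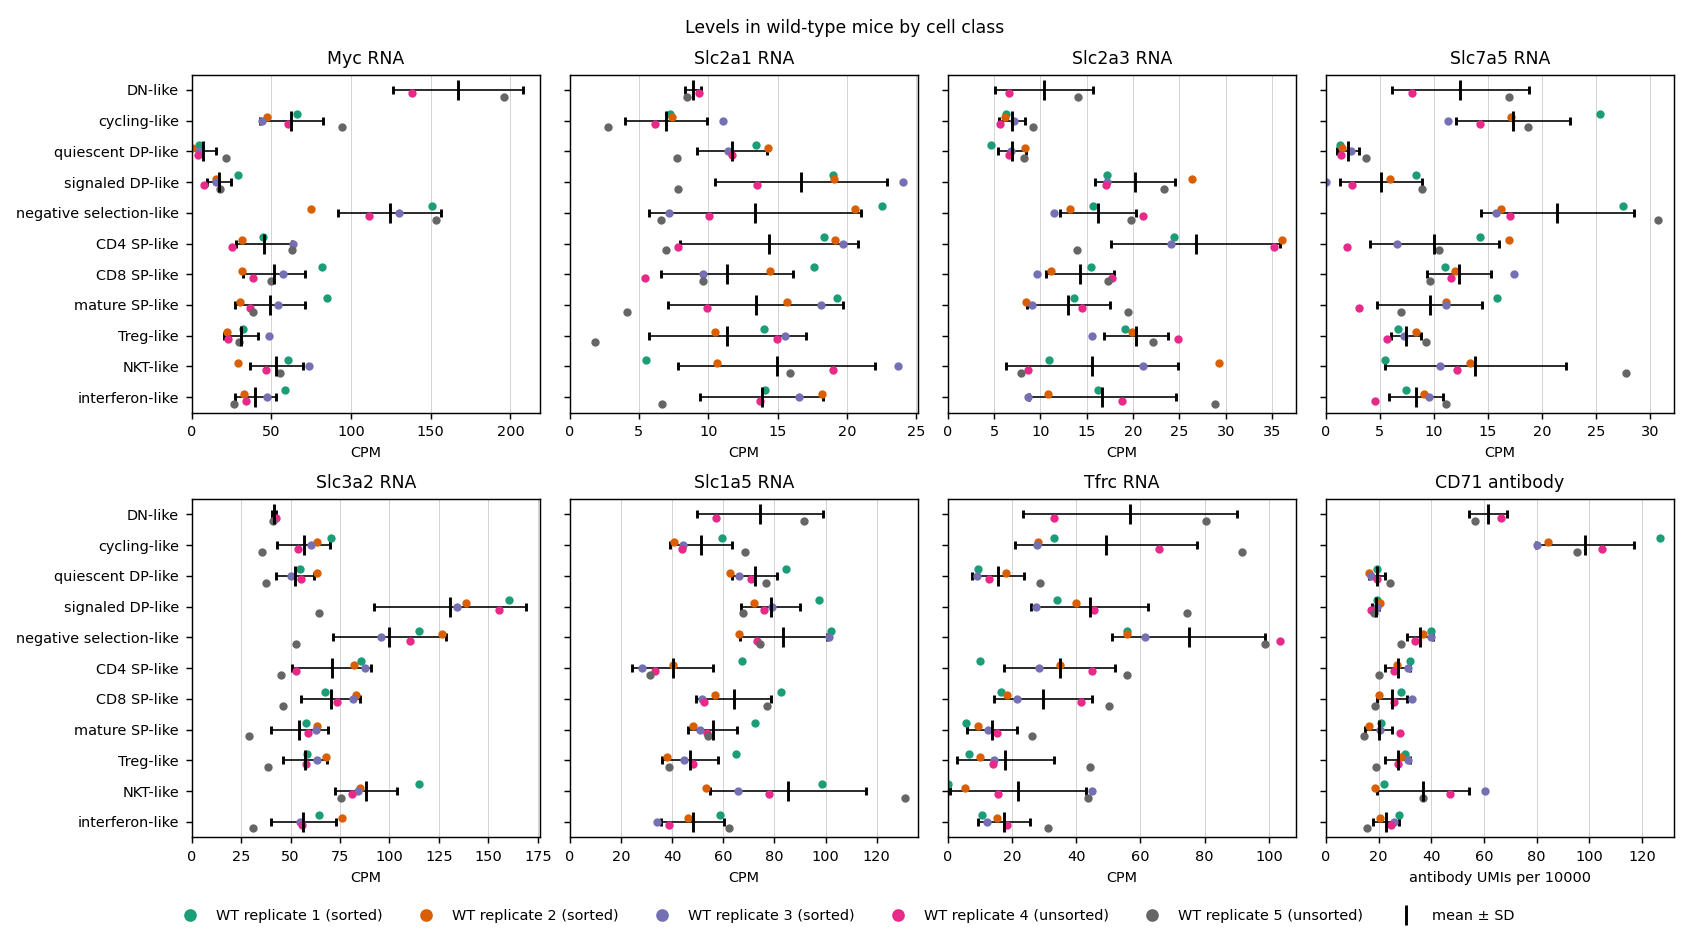
Levels of the 6 genes and Tfrc (CPM) and of CD71 antibody (per 10000 antibody UMIs) in 11 named classes of the wild-type mice. Each point is 1 mouse, the upright mark and bar are the mean ± SD, and each panel has its own axis. Myc and Slc7a5 sit high in negative selection-like and cycling-like cells (Myc means 124 and 62.6), and Slc3a2 in signaled DP-like cells (131).

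Among 8579 genes with at least 20 CPM in 1 of the 13 classes, the 5 whose wild-type levels were most like Myc were Smyd2 (Pearson 0.973), Rrp1b (0.964), Nme4 (0.953), Kat2a (0.947) and Ifrd2 (0.937). Slc7a5 was at rank 22 and Tfrc at rank 352 (0.698). The other 4 were far down, with 0.0931 for Slc1a5, 0.0605 for Slc2a3 and −0.379 for Slc2a1. For Slc2a3 with Slc3a2 it was 0.591. These values describe 13 classes and carry no test. The scarce B-like cells are among the 13, with the lowest mean log2 level of Myc (1.58) and the highest of Slc2a1 (4.51). Smyd2 and Nme4 were at 0 there. The correlations were not computed without that class.

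Differences between classes were tested with edgeR's quasi-likelihood test on counts per mouse, with the mouse as a block, TMM scaling and Benjamini-Hochberg adjustment over all genes tested, and a gene counts as changed where its adjusted p was under 0.05. Every log2 difference below is on that TMM scale, and it can differ in sign from the difference in CPM. Values given without the low-count filter come from a separate fit that keeps genes of few counts. Their adjusted p are not on one footing with those of the filtered test. Plain library size moved the median over all genes by −0.28 in the cycling-like, −0.20 in the DN-like, −0.31 in the mature SP-like, −0.11 in the negative selection-like and 0.10 in the Treg-like comparison described below, and the share of called genes that were higher from 48.6% to 34%, 48.6% to 33.9%, 48.3% to 16.7%, 50.3% to 35.4% and 48.2% to 72.8%. In the signaled DP-like comparison the share went from 53.6% to 42.4%. These classes differ in many genes, so each count is given beside the share of all genes that passed. The class comparisons share mice, and those with the same class on one side share its libraries. In such sums, fewer cells that express a gene and less RNA per cell cannot be told apart.

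The first comparison asked how dividing thymocytes differ from quiescent DP-like cells. Myc was at 36.2 to 170 CPM in the cycling-like cells of the 17 mice (median 61.9) and at 0 to 21.5 in their quiescent DP-like cells (median 3.12). The groups did not overlap, and Myc was 14.1 times as high in the fit (log2 3.82, SE 0.20, adjusted p = 3.8e-16). Slc7a5 rose too, from 2.52 ± 2.56 to 15.9 ± 6.94 CPM, higher in 17 of 17 mice (log2 3.08, SE 0.18, adjusted p = 5.1e-15). In 4 quiescent DP-like samples, of AND replicate 1, OT-I replicate 2, OT-II replicate 1 and wild-type replicate 2, no Myc UMI was found, which at 3 counts allows a level of up to 2.26 to 35.7 CPM in those samples, for counting error only.

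The other 4 members moved by less. Slc3a2, the partner of Slc7a5, was at 63.8 ± 15.1 against 59.7 ± 22.6 CPM, higher in 11 of 17 mice (log2 0.31, adjusted p = 0.0017), a call that was lost under plain library size (log2 0.03, adjusted p = 0.70) and in experiment 3 alone (adjusted p = 0.11). Slc2a1 was lower, at 7.09 ± 2.46 against 10.5 ± 3.19 CPM (log2 −0.44, SE 0.13, adjusted p = 0.0031), in 14 of 17 mice, but not in experiments 1 and 2 alone (adjusted p = 0.096). Slc2a3 (log2 0.07, 95% interval −0.23 to 0.38, adjusted p = 0.68, and log2 −0.21 under library size) and Slc1a5 (log2 −0.11, interval −0.27 to 0.04, adjusted p = 0.19) did not pass. In all, 4 of 6 members passed, 3 higher and 1 lower, beside 81.1% of 9290 genes tested (39.4% higher and 41.7% lower). UMIs per cell were 5.16 times as many in cycling-like cells, and the part of that depth in these values was not tested.

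CD71 rose as both protein and RNA. CD71 antibody was at 69.4 to 440 per 10000 antibody UMIs in cycling-like cells (median 106) and at 15.4 to 88.3 in quiescent DP-like cells (median 21.9), higher in 17 of 17 mice (log2 2.04, SE 0.099, adjusted p = 8.4e-13), where 73.9% of the 111 antibodies passed. The ranges overlapped only through F5 replicate 1, whose quiescent DP-like cells were at 88.3. Tfrc RNA rose from 18.4 ± 10.2 to 51.5 ± 25.6 CPM, in 17 of 17 mice (log2 1.84, SE 0.14, adjusted p = 8.5e-13).

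The gene lists moved in the same comparison. All 15 of the ribosome biogenesis and polyamine genes rose (median log2 1.87, against −0.03 over all genes tested), among them Srm, which makes spermidine (7.56 to 81.2 CPM, log2 3.57), Cad of pyrimidine synthesis (log2 3.38), Polr1b of RNA polymerase I (log2 2.57) and Nop58 of the nucleolus (log2 2.34). Of 10 Myc network genes, 9 fell, including Mxd4 (490 to 63.1 CPM, log2 −2.65), Mxd1 (log2 −1.32) and Mxi1 (log2 −0.72), which encode partners of Max that oppose Myc. Mxd3, of the same family, rose from 2.53 to 144 CPM (log2 5.57). Of 10 amino acid response genes 9 rose and 1 fell, led by Psat1 of serine synthesis (5.801 to 76.2 CPM, log2 3.90) and Mthfd2, a mitochondrial folate enzyme (log2 3.53). Of 13 glycolytic enzymes 9 rose and 2 fell, led by Tpi1 (log2 2.80). With plain library size 7 amino acid response genes rose and 1 fell, with Atf4 at log2 −0.07 in place of 0.21 and Sars no longer called, and 8 glycolytic enzymes rose and 3 fell, with Pfkp at log2 −0.04.

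Of 14 other nutrient transporters tested in cycling-like cells, 8 rose and 5 fell, and 6 rose and 6 fell with library size. The cationic amino acid transporter Slc7a1 (4.91 to 26.2 CPM, log2 2.95) and the nucleoside transporter Slc29a1 (34.8 to 101, log2 1.90) rose. Slc7a11, the cystine transporter, fell from 100 to 14.7 CPM (log2 −2.44), and Slc43a2, a carrier of large neutral amino acids, from 127 to 27.2 (log2 −1.91). All 15 cell cycle genes rose, but markers that named the class are among them.

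DN-like cells, found in 7 mice, had the highest Myc of all classes. The 7 values were 326 CPM in AND replicate 1, 204 and 152 in F5, 137 and 238 in OT-II, and 138 and 196 in wild-type replicates 4 and 5, all above the 0 to 21.5 CPM of quiescent DP-like cells (log2 4.91, SE 0.32, adjusted p = 1.1e-09). Slc7a5 was at 16.0 ± 4.08 against 3.89 ± 3.52 CPM, higher in 7 of 7 mice (log2 2.67, SE 0.35, adjusted p = 4.1e-06). Slc3a2 was not higher with it, at 55.0 ± 16.3 against 70.7 ± 31.0 CPM (log2 −0.17, interval −0.43 to 0.09, adjusted p = 0.29). With plain library size Slc3a2 was called lower (log2 −0.37, adjusted p = 0.025).

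Slc1a5 was at 70.4 ± 15.7 against 58.7 ± 12.3 CPM in DN-like cells, higher in 5 of 7 mice (log2 0.41, SE 0.14, adjusted p = 0.018), and the call was lost under 6 alternatives and without OT-II replicate 1 (adjusted p = 0.053). Slc2a1 (9.72 against 8.57 CPM) and Slc2a3 (12.01 against 5.97) had too few counts for the test (Slc2a3 log2 0.79, adjusted p = 0.056 without the filter). Of the 4 members tested 3 passed, each of them higher, beside 57% of 7578 genes (27.7% higher). Tfrc RNA did not overlap between the classes, at 50.2 ± 18.1 against 19.7 ± 6.15 CPM (log2 1.66, SE 0.16, adjusted p = 9.5e-08). CD71 antibody was at 224 per 10000 in AND, 277 and 419 in F5, 101 and 97.0 in OT-II and 66.5 and 56.5 in wild-type DN-like cells, higher than in the same mouse's quiescent DP-like cells in 7 of 7 (log2 1.49, SE 0.23, adjusted p = 5.5e-04, 64% of 111 antibodies passing).

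All 15 ribosome biogenesis and polyamine genes rose in DN-like cells too (median log2 1.98), led by Srm (log2 3.85), Polr1b (3.36) and Gnl3, a nucleolar GTPase (3.19). Slc7a11 fell from 101 to 3.62 CPM (log2 −4.24) while Slc7a1 rose (log2 2.85), and 6 of 13 other transporters rose and 3 fell. In the Myc network 5 of 9 fell and none rose, with Mxd4 at 151 against 504 CPM (log2 −1.56). The cycling markers summed to 290 to 1095 CPM in DN-like cells, and erythrocyte markers reached 1881 CPM in OT-II replicate 2 and 624 in OT-II replicate 1. They were at 0 to 20.2 CPM in AND and F5, and their part in CD71 was not tested. Of 13 cell cycle genes 10 rose and 0 fell in DN-like cells (median log2 1.89), and UMIs per cell were 3.81 times as many as in quiescent DP-like cells, higher in 7 of 7 mice. The part of depth and division in the RNA values was not tested.

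**Figure D2:**
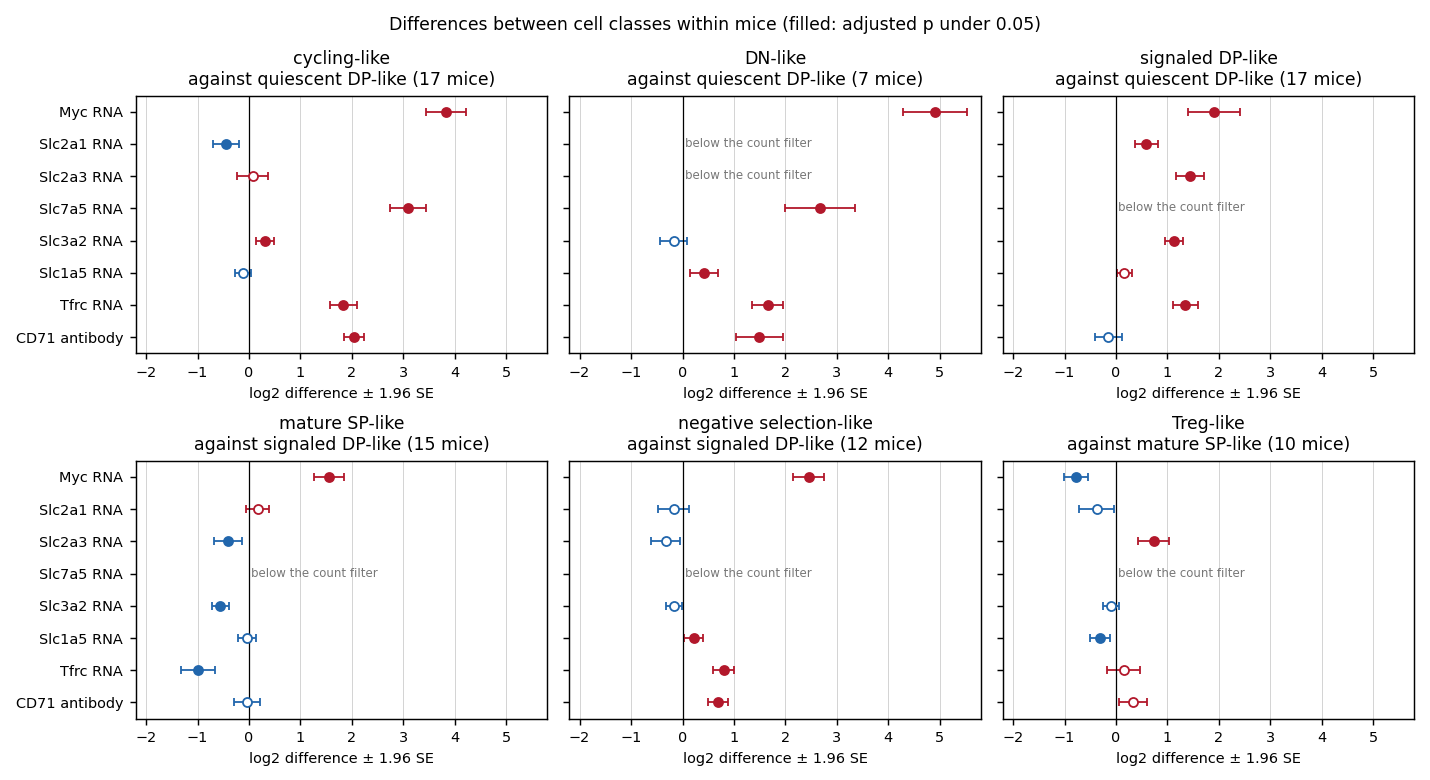
Log2 differences between classes for the 6 genes, Tfrc and CD71 antibody, on the TMM scale, with bars of 1.96 standard errors. Each panel is 1 comparison, filled points passed an adjusted p of 0.05, and features below the low-count filter have no point. Myc differs in all 6 comparisons, at log2 4.91 in DN-like cells and −0.77 in Treg-like cells.

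The next comparison set signaled DP-like against quiescent DP-like cells, both named from marker genes. Whether a cell had received a TCR signal was not measured. Slc3a2 was at 50.9 to 200 CPM in signaled DP-like cells (median 127) and at 35.0 to 113 in quiescent DP-like cells (median 55.0), higher in 17 of 17 mice (log2 1.13, SE 0.091, adjusted p = 6.1e-12). Both F5 mice were the highest, at 200 and 180, and wild-type replicate 5, OT-II replicate 2 and OT-I replicate 2 the lowest, at 64.5, 51.4 and 50.9, each above its own quiescent cells. Slc2a3 rose from 6.41 ± 3.67 to 19.4 ± 5.37 CPM, again in 17 of 17 mice (log2 1.44, SE 0.14, adjusted p = 2.2e-10). Myc rose less than in dividing cells, from 4.45 ± 5.33 to 19.9 ± 8.42 CPM, in 16 of 17 mice (log2 1.90, SE 0.26, adjusted p = 1.9e-07), the exception being wild-type replicate 5, at 17.8 against 21.5.

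Slc2a1 was at 15.4 ± 5.48 against 10.5 ± 3.19 CPM, higher in 16 of 17 mice (log2 0.59, SE 0.11, adjusted p = 6.4e-05). Slc1a5 did not pass, at 61.7 ± 17.3 against 59.5 ± 17.6 CPM (log2 0.16, interval 0.02 to 0.31, adjusted p = 0.053), although it did in experiments 1 and 2 alone (adjusted p = 0.021). Slc7a5, at 5.09 ± 5.76 against 2.52 ± 2.56 CPM, was below the low-count filter, with no UMI in 4 mice. In the fit without that filter it was higher (log2 1.07, adjusted p = 0.0014). With the filter, 4 of 5 members tested passed, all higher, beside 56.1% of 7905 genes (30.1% higher and 26% lower). UMIs per cell were 1.24 times as many in signaled DP-like cells. In experiment 3 alone Slc2a3 (log2 1.495) and Slc3a2 (log2 1.14) passed, Slc1a5 did not, and Myc and Slc2a1 were below the filter.

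Tfrc RNA rose from 18.4 ± 10.2 to 37.6 ± 14.1 CPM, in 16 of 17 mice (log2 1.34, SE 0.12, adjusted p = 1.2e-10), whereas CD71 antibody did not pass, at 24.6 ± 11.1 against 29.8 ± 19.8 per 10000 (log2 −0.15, SE 0.14, adjusted p = 0.51), higher in 7 of 17 mice, where 30.6% of the antibodies passed. The antibody value is a share of all antibody UMIs of a class, so it also moves with the other antibodies.

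In signaled DP-like cells all 13 tested ribosome biogenesis and polyamine genes rose (median log2 0.71), led by Srm (log2 1.82) and Nme1, a nucleoside diphosphate kinase (1.28). Of 13 glycolytic enzymes 9 rose and 1 fell, with Aldoa (137 to 290 CPM, log2 1.15) and Pfkp (log2 1.01) in front, and of 10 amino acid response genes 7 rose and 1 fell. Of 12 other transporters 5 rose and 6 fell. Slc7a11 went from 100 to 3.32 CPM (log2 −4.88), Slc43a1 from 34.0 to 5.19 (log2 −2.48) and Slc43a2 from 127 to 48.0 (log2 −1.37), all carriers of amino acids, while Slc16a10, which carries aromatic amino acids, rose from 11.2 to 33.3 (log2 1.37). Of 9 cell cycle genes tested 2 rose and 5 fell. Mxd4 (log2 −0.98) and Mxi1 (−0.96) fell, and Mnt, another Max partner, rose (0.66).

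Mature SP-like cells were compared with signaled DP-like cells in 15 mice, with neither MHCII-/- mouse among them. The CD8-fated mice gave 87 to 206 mature SP-like cells each and the CD4-fated mice 268 to 934. CD8 SP-like cells (5004 cells in 13 mice) were a separate class, so these values do not stand for all CD8 lineage cells. Myc rose further, to 21.8 to 84.96 CPM (median 38.8) from 7.97 to 31.6 (median 15.5), in 15 of 15 mice (log2 1.56, SE 0.15, adjusted p = 6.4e-09). Slc3a2 fell, to 29.1 to 134 CPM (median 64.1) from 50.9 to 200 (median 132), lower in 15 of 15 mice (log2 −0.56, SE 0.083, adjusted p = 4.6e-06). Slc2a3 fell as well, from 19.8 ± 5.66 to 12.3 ± 4.15 CPM in 15 of 15 mice (log2 −0.41, SE 0.14, adjusted p = 0.015), a call lost without wild-type replicate 2 (adjusted p = 0.065) and in either set of experiments alone. The CPM of Slc2a1 and Slc1a5 were lower in most mice (higher in 5 and 3 of 15), but on the TMM scale they did not pass (log2 0.17, adjusted p = 0.26, and −0.03, adjusted p = 0.79). With plain library size Slc2a1 turned to log2 −0.16 and Slc1a5 was called lower (log2 −0.34, adjusted p = 0.0031).

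Of 5 members tested, 1 was higher and 2 lower, beside 53.2% of 7646 genes (25.7% higher and 27.5% lower). The scaling moved this comparison the most of the 6. UMIs per cell were 1.51 times as many in mature SP-like cells, higher in 15 of 15 mice, and the part of that depth was not tested. Slc7a5 was below the filter, at 7.48 ± 3.35 against 5.47 ± 6.04 CPM (log2 0.76, adjusted p = 0.0027 without the filter). Tfrc fell from 38.6 ± 14.6 to 17.2 ± 9.99 CPM, in 14 of 15 mice (log2 −0.99, SE 0.17, adjusted p = 3e-05, but 0.11 in experiment 3 alone), and CD71 antibody was at 27.4 ± 19.0 against 25.4 ± 11.6 per 10000 (log2 −0.04, adjusted p = 0.82, 42.3% of antibodies passing). Erythrocyte markers summed to 4902 CPM in the mature SP-like cells of wild-type replicate 4 and to 1368 in OT-I replicate 2, and to at most 50.6 in the others. Their part in CD71 was not tested.

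Of 11 other transporters 8 fell and 2 rose in mature SP-like cells with TMM, and 8 fell and 0 rose with plain library size. Those that fell included Slc29a1 (51.3 to 15.8 CPM, log2 −1.49), Slc16a10 (log2 −1.02) and the neutral amino acid carrier Slc38a2 (208.99 to 105, log2 −0.69). Of the ribosome biogenesis and polyamine genes 9 of 13 rose and 1 fell, with Srm at log2 1.11. Of 10 amino acid response genes 3 rose, Mthfd2 (log2 1.17), Ddit4, which restrains mTORC1 (1.06), and Sars, a seryl-tRNA synthetase (0.34), and 0 fell. With library size 2 of the 10 rose and 6 fell, and Sars lost its call (log2 0.04, adjusted p = 0.86). Under plain library size 6 of the 13 ribosome biogenesis and polyamine genes rose and 4 fell, with Nop56 turning from log2 0.25 to −0.06, so a direction for these lists as a whole depends on the scaling here. Of 12 glycolytic enzymes 7 rose and 2 fell with TMM and 3 rose and 6 fell with library size.

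Negative selection-like cells had Myc at 75.0 to 190 CPM (median 110) in 12 mice, against 7.97 to 36.5 (median 17.5) in their signaled DP-like cells. The groups did not overlap (log2 2.45, SE 0.15, adjusted p = 8.4e-13). Slc7a5 was at up to 104 CPM (median 16.2) against 3.95 ± 3.31, higher in 11 of 12 mice. AND replicate 1, at 104, was far above the 30.7 of the next mouse. Slc7a5 was below the filter, with no UMI in the signaled DP-like cells of AND replicate 1 and wild-type replicate 3. Without the filter Slc7a5 was higher (log2 2.19, adjusted p = 2.2e-22). Slc3a2 was not, at 99.8 ± 35.0 against 118 ± 35.5 CPM (log2 −0.17, interval −0.32 to −0.01, adjusted p = 0.088).

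Slc2a3 (log2 −0.33, adjusted p = 0.063) and Slc2a1 (log2 −0.17, adjusted p = 0.37) did not pass in negative selection-like cells, although library size called Slc2a3 (adjusted p = 0.013) and Slc3a2 (0.0047) lower. Slc1a5 barely passed, at 74.4 ± 23.3 against 65.4 ± 18.8 CPM in 7 of 12 mice (log2 0.21, SE 0.090, adjusted p = 0.047), and lost its call in 9 of 12 fits that left out 1 mouse. So 2 of 5 members tested passed, both higher, beside 53.1% of 7508 genes (26.7% higher and 26.4% lower). UMIs per cell were 1.62 times as many in negative selection-like cells, higher in 12 of 12 mice, and the part of that depth was not tested. Tfrc rose in 11 of 12 mice, from 40.9 ± 13.8 to 64.8 ± 21.5 CPM (log2 0.80, SE 0.11, adjusted p = 5.2e-07). CD71 antibody rose with it, from 24.3 ± 10.2 to 38.6 ± 8.51 per 10000 in 11 of 12 mice (log2 0.69, SE 0.10, adjusted p = 8.1e-05, 57.7% of antibodies passing), and stayed below the 69.4 of the lowest cycling-like sample.

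All 14 ribosome biogenesis and polyamine genes tested rose in negative selection-like cells (median log2 1.28), among them Srm (27.9 to 140 CPM, log2 2.30), Cad (2.22) and Odc1, which starts polyamine synthesis (38.8 to 166, log2 2.13). Slc7a1 went from 10.8 to 67.5 CPM (log2 2.80) and the folate carrier Slc19a1 from 6.03 to 29.4 (log2 2.23), and of 12 other transporters 7 rose and 2 fell. Of 12 glycolytic enzymes 8 rose and 0 fell, and of 10 amino acid response genes 8 rose and 0 fell. All 7 cell cycle genes tested rose as well, with Mcm5 at 49.96 against 20.1 CPM (log2 1.49). The cycling markers summed to 34.6 to 645 CPM in negative selection-like cells and to 15.5 to 882 in signaled DP-like cells. With cells of 2 or more cell cycle UMIs left out, Myc was the 1 member still called.

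Treg-like cells, which express the regulatory T cell genes, were set against mature SP-like cells in 10 mice. Myc was lower in 10 of 10, at 27.8 ± 10.99 against 47.5 ± 17.7 CPM (log2 −0.77, SE 0.12, adjusted p = 2.2e-06). Slc2a3 was higher in 9 of 10, at 19.5 ± 4.46 against 12.9 ± 3.95 (log2 0.73, SE 0.15, adjusted p = 3e-04). Slc1a5 was lower in 9 of 10, at 45.6 ± 14.3 against 51.4 ± 11.8 (log2 −0.31, SE 0.10, adjusted p = 0.017), a call lost under 4 alternatives and without MHCI-/- replicate 2 or wild-type replicate 2. Slc2a1 (log2 −0.38, adjusted p = 0.12), Slc3a2 (log2 −0.09, adjusted p = 0.42), Tfrc (log2 0.15, adjusted p = 0.55) and CD71 antibody (log2 0.32, adjusted p = 0.091, 35.1% of antibodies passing) did not pass. In experiments 1 and 2 alone CD71 antibody was higher (log2 0.66, adjusted p = 6.1e-05).

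Of 5 members tested 3 passed in Treg-like cells, 1 higher and 2 lower, beside 27.1% of 7831 genes (13.1% higher and 14% lower), but in experiment 3 alone, which held 4 of the mice, 0 did. Of 13 ribosome biogenesis and polyamine genes 9 were lower, with Srm at log2 −0.71, and 1, Odc1, was higher (0.53). Of 9 Myc network genes 3 were higher and 1 lower. Mxd1 (21.5 to 55.6 CPM, log2 1.16) and Mxd4 (190 to 344, log2 0.74) were higher in 10 of 10 mice. The other calls, Mxi1 (log2 0.39) and Mlx (log2 −0.30), were lost in DESeq2. Of 12 other transporters 0 passed in edgeR's test and 0 in DESeq2, where 3 and 2 had an unadjusted p under 0.05.

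**Figure D3:**
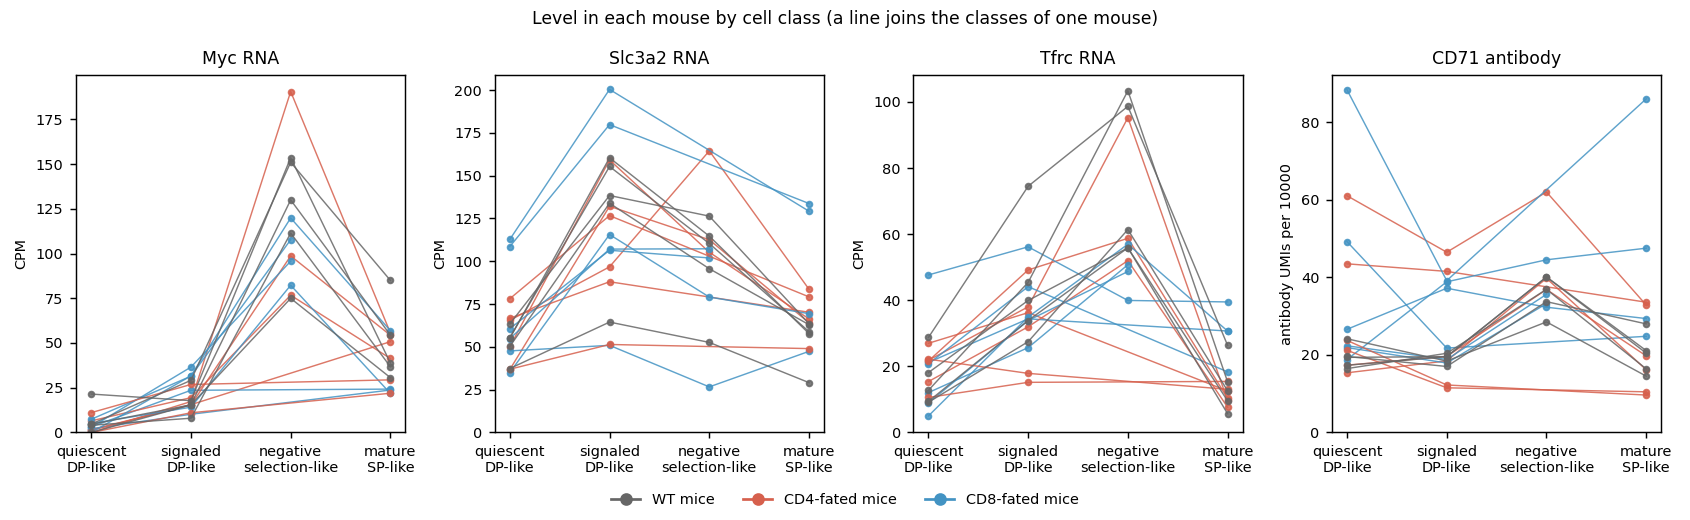
Myc, Slc3a2 and Tfrc RNA (CPM) and CD71 antibody (per 10000 antibody UMIs) in quiescent DP-like, signaled DP-like, negative selection-like and mature SP-like cells. Each line joins the classes of 1 mouse, colored as wild-type, CD4-fated or CD8-fated. Slc3a2 is highest in signaled DP-like cells of both F5 mice (200 and 180 CPM).

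Because the same cells carry protein counts, signaled DP-like cells were divided within each lane into tertiles of an antibody's share, and the upper tertile was compared with the lower in 17 mice. CD5, whose surface level follows TCR signal strength, was at 2552 ± 435 against 1254 ± 402 per 10000. Cells of the MHC-deficient and the sorted wild-type mice had been sorted as CD5+TCRβ+, so their lower tertile may lack cells of low CD5. The part of that sort in these values was not tested. Slc3a2 was lower in the cells with more CD5, at 107 ± 48.4 against 140 ± 61.2 CPM in 14 of 17 mice (log2 −0.51, SE 0.092, adjusted p = 1.1e-04). Slc1a5 did not pass (log2 −0.12, adjusted p = 0.59), and these were the 2 members with enough counts, beside 9.64% of 4960 genes (4.25% higher and 5.38% lower). Myc, below the filter, was at 17.7 ± 5.18 against 24.9 ± 19.96 CPM, higher in 7 of 17 mice (log2 −0.52, adjusted p = 0.064 without the filter). Tfrc did not pass (log2 0.03, adjusted p = 0.97).

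CD69, which appears soon after TCR engagement, gave another pattern. Upper and lower tertiles stood at 60.6 ± 27.1 and 12.98 ± 5.48 per 10000. Myc was at 8.05 to 51.9 CPM in the upper tertile (median 25.3) and 0 to 37.2 in the lower (median 9.65), higher in 16 of 17 mice, and Slc2a3 at 22.2 ± 11.3 against 14.8 ± 8.29. Both lay below the low-count filter, and without it both were called (Myc log2 1.35, adjusted p = 1.2e-12, Slc2a3 log2 0.81, adjusted p = 4.2e-04). Of the members above the filter, Slc3a2 was lower (log2 −0.27, adjusted p = 0.017) and Slc1a5 higher (log2 0.32, adjusted p = 0.034), beside 17.8% of 4833 genes (9.85% higher and 7.9% lower), and leaving out 1 mouse lost the first call in 2 of 17 fits and the second in 6 of 17. DESeq2 called neither, nor did experiment 3 alone (Slc3a2 adjusted p = 0.76, Slc1a5 0.95), and library size lost Slc1a5 (0.085). Of 12 ribosome biogenesis and polyamine genes 11 were higher in the cells with more CD69, led by Gnl3 (log2 0.60). Tfrc was higher too (log2 0.46, adjusted p = 0.021), at 40.0 ± 24.8 against 37.6 ± 19.7 CPM, a call lost in 3 of 17 such fits and in DESeq2 (log2 0.40, adjusted p = 0.11), while CD71 antibody was at 23.8 ± 8.65 against 25.4 ± 12.9 per 10000.

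CD71 antibody was used the same way. In quiescent DP-like cells, with CD71 at 55.8 ± 36.0 against 10.6 ± 8.18 per 10000, Slc3a2 was higher in the upper tertile, at 72.2 ± 26.2 against 49.5 ± 27.3 CPM in 15 of 17 mice (log2 0.39, SE 0.092, adjusted p = 4e-04), and Slc1a5 lower, at 53.4 ± 21.2 against 72.5 ± 29.4 (log2 −0.30, SE 0.084, adjusted p = 0.0038). The Slc3a2 call was lost in experiments 1 and 2 alone (adjusted p = 0.089), and in experiment 3 alone Slc3a2 was below the filter and Slc1a5 did not pass (adjusted p = 0.20). These were the 2 members tested, beside 34.4% of 5380 genes (17.7% higher and 16.7% lower), and UMIs per cell were 1.37 times as many in the upper tertile. Tfrc itself, at 21.2 ± 25.8 against 16.3 ± 6.62 CPM, was below the filter (log2 0.27, adjusted p = 0.40 without it). OT-I replicate 2, with 17 cells a tertile, stood at 111 against 0 CPM, and without that mouse the mean of the upper tertile lay below that of the lower.

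In signaled DP-like cells neither of the 2 members tested followed CD71 antibody in edgeR's test (Slc3a2 log2 0.04, interval −0.11 to 0.19, Slc1a5 log2 −0.13, interval −0.34 to 0.09), where 7.04% of 4747 genes passed (5.16% higher and 1.87% lower). In mature SP-like cells none of 3 did (1.96% of 5302 genes, 1.3% higher and 0.66% lower). At an unadjusted p under 0.05 the counts were 0 in both. Tfrc RNA was at 42.7 ± 20.9 against 34.1 ± 17.7 CPM between the CD71 tertiles of signaled DP-like cells, in 13 of 17 mice, and did not pass (log2 0.29, adjusted p = 0.25).

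The study's main question was how CD4-fated and CD8-fated cells part, so 26938 cells from signaled DP-like to mature SP-like were ordered, again without the members. Of these, 482 cells of CD4-fated or CD8-fated mice were left out because they lay in clusters with the marker genes of the other lineage, and 26456 were divided into 10 bins of pseudotime. F5 replicate 2, a CD8-fated mouse, had no value in bins 9 and 10. In both lineages Myc rose along the order, from 10.2 ± 8.41 CPM in bin 1 to 40.7 ± 15.9 in bin 10 in CD4-fated mice (n = 6) and from 9.82 ± 9.22 (n = 6) to 60.8 ± 21.2 (n = 5) in CD8-fated mice. The change over bins passed in both (adjusted p = 6.4e-15 and 2.9e-17), where 46.9% of 7623 and 55.3% of 8520 genes passed. No difference in its course between the lineages passed (lineage-by-bin adjusted p = 0.60), nor in that of Slc2a1 (0.90) or Slc1a5 (0.12). The term passed for 2 of the 5 members tested, beside 23.4% of 8056 genes.

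Slc2a3 and Slc3a2 differed in course. In CD4-fated mice Slc2a3 stood at 17.9 ± 8.61 CPM in bin 1, peaked at 36.2 ± 11.5 in bin 4 and fell to 8.24 ± 5.98 in bin 10 (adjusted p = 3.2e-07). In CD8-fated mice its means stayed between 10.97 and 19.6 (adjusted p = 0.25). The lineage-by-bin term passed (adjusted p = 7.1e-04), in experiments 1 and 2 alone too (0.0018) but not in experiment 3 alone (0.56), which held OT-I and OT-II, and not with cells ordered by a maturation score (0.43). In wild-type mice, whose cells take both paths, Slc2a3 was highest in bin 5, at 38.9 CPM.

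Slc3a2 began high in both lineages, with bin 1 at 123.5 ± 41.1 CPM for CD4-fated and 130 ± 60.0 for CD8-fated mice, and declined. In CD4-fated mice it reached its lowest mean late, 58.7 ± 22.8 in bin 9, and in CD8-fated mice earlier, 71.5 ± 51.9 in bin 5, after which it stood between 82.0 and 93.8. The courses differed (adjusted p = 5.4e-04, 2.9e-04 in experiments 1 and 2 alone and 0.31 in experiment 3 alone). The CD8-fated mice were far apart, with F5 replicate 1 at 124 to 179 CPM over the 10 bins and OT-I replicate 2 at 21.5 to 52.0.

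**Figure D4:**
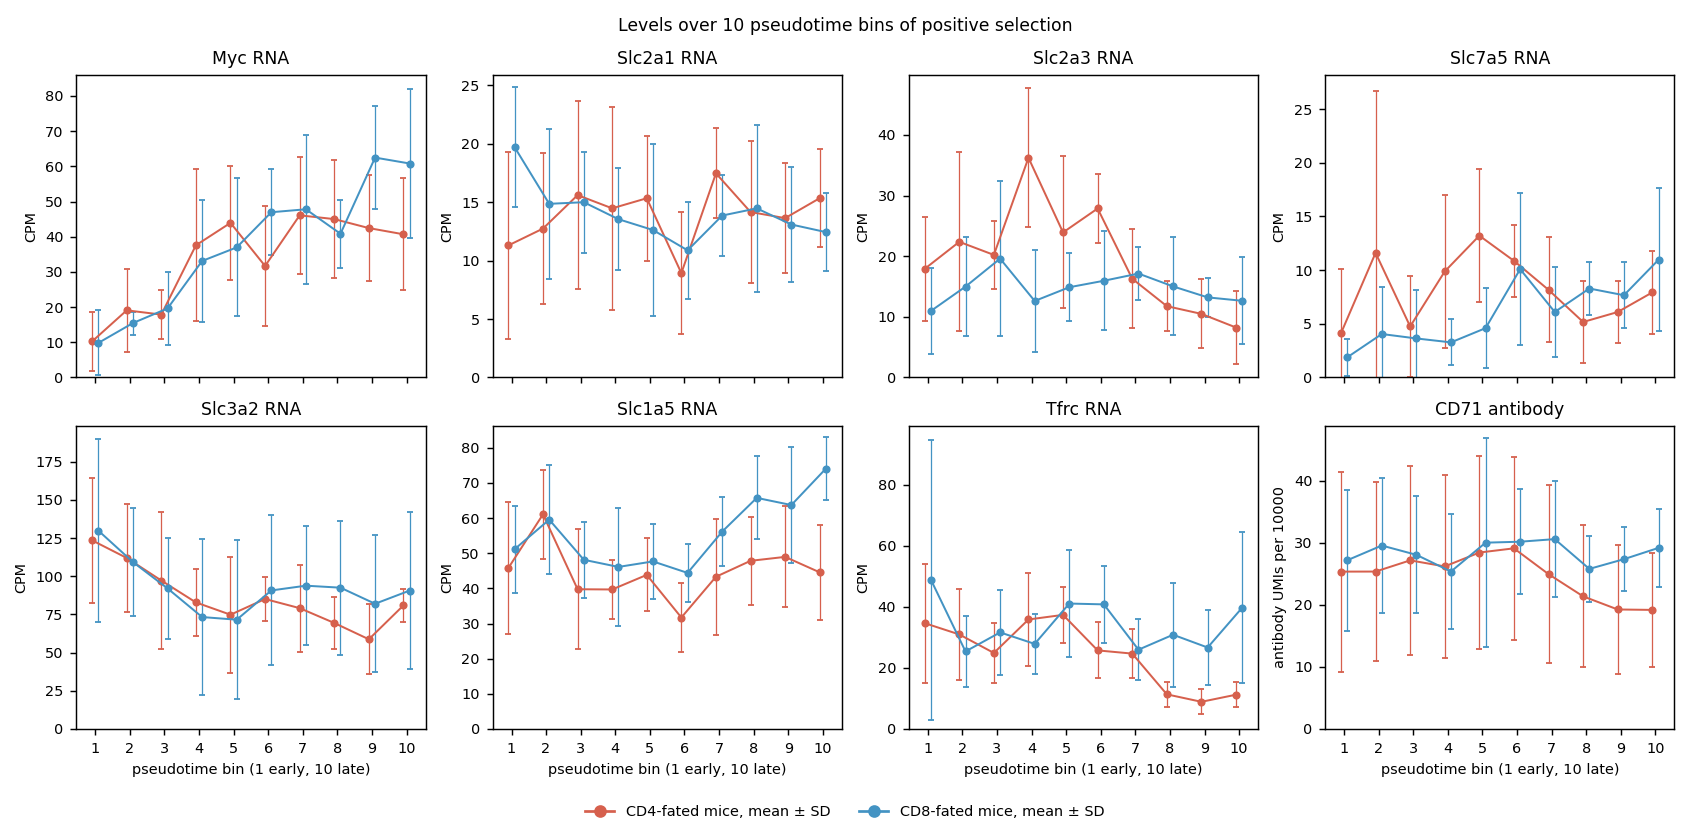
RNA levels (CPM) and CD71 antibody (per 10000 antibody UMIs) over 10 pseudotime bins in CD4-fated and CD8-fated mice. Points are means over mice and bars 1 SD, cut off at 0, and each panel has its own axis. Slc2a3 peaks in bin 4 in CD4-fated mice (36.2 CPM), and in bins 8 to 10 the Tfrc means are 8.88 to 11.3 CPM for CD4-fated against 26.7 to 39.7 for CD8-fated mice. F5 replicate 2 is not in the CD8-fated means of bins 9 and 10.

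Bin by bin, 1 of 37 values of the members that could be tested passed between the lineages, against 3.65% of 60258 gene and bin values in all. With a replicate block, which pairs the same-numbered mice of each genotype pair, 1 of the members' values passed as well, and 3952 gene and bin values instead of 2199. Experiments 1 and 2 alone gave 5 of the members' values, adding Slc2a3 in bins 5 (log2 1.09, adjusted p = 0.019) and 6 (log2 1.17, adjusted p = 0.019) and Slc3a2 in bins 8 (log2 −0.58, adjusted p = 0.0195) and 9 (log2 −0.56, adjusted p = 0.029), and experiment 3 alone gave 0. The value called with all mice was Slc1a5 in bin 10, at 44.6 ± 13.5 CPM for CD4-fated (n = 6) against 74.1 ± 9.04 for CD8-fated mice (n = 5). The groups did not overlap (log2 −0.80, SE 0.19, adjusted p = 0.0075), and 13.1% of genes passed in that bin. F5 replicate 2 had no value there, and its Slc1a5 in bin 8, at 46.3 CPM, lay within the CD4-fated range of bin 10 (29.2 to 62.7). The bin 10 difference was log2 −0.82 in experiments 1 and 2 alone (adjusted p = 0.0020) and −0.69 in experiment 3 alone (0.71), and it did not pass with cells ordered by a maturation score (log2 −0.40, adjusted p = 0.19). At an unadjusted p under 0.05 there were 7 of 37. The share of genes passing rose along the order, from 0 in bins 1 and 2, 0.0168% in bin 3, 0.612% in bin 4 and 1.71% in bin 5 to 3.4% in bin 6 and 3.68% in bin 7. The CD4-fated mean of Slc1a5 was below the CD8-fated mean in 9 of 10 bins. Without the low-count filter Slc2a3 in bin 4 (log2 1.27, adjusted p = 0.0032) and Slc7a5 in bin 5 (13.2 ± 6.20 against 4.59 ± 3.75 CPM, log2 1.67, adjusted p = 0.031) were higher in CD4-fated mice. The Slc7a5 value rests on 0 to 13 UMIs per mouse.

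Tfrc differed late in the order. In bin 10 it was at 11.2 ± 4.17 CPM for CD4-fated (n = 6) against 39.7 ± 24.6 for CD8-fated mice (n = 5), without overlap (log2 −1.504, SE 0.31, adjusted p = 0.0037), and at log2 −1.31 (0.0078) in experiments 1 and 2 alone and −1.99 (0.25) in experiment 3 alone. F5 replicate 2 had no value in bins 9 and 10. In bin 8 its Tfrc was at 16.0 CPM, beside 4.27 to 15.9 in bin 10 of the CD4-fated mice. Bins 8 (log2 −1.101, adjusted p = 0.032) and 9 (log2 −1.45, adjusted p = 0.015) also passed. In fits that left out 1 of the 12 mice the bin 8 call was lost in 6, and the bin 9 call in 2, without MHCI-/- replicate 2 and without MHCII-/- replicate 2 (adjusted p up to 0.12). With cells ordered by the maturation score bin 9 passed (log2 −1.41, adjusted p = 0.0048), but bin 8 (log2 −0.39, adjusted p = 0.52) and bin 10 (log2 −0.82, adjusted p = 0.17) did not. In bins 8 and 9, 4.45% and 6.15% of genes passed. The lineage-by-bin term of Tfrc was at adjusted p = 1.2e-07 (2.1e-06 in experiments 1 and 2 alone and 0.33 in experiment 3 alone). CD71 antibody is given by bin without a test. Its CD4-fated mean was highest in bin 6, at 29.1 ± 14.7 per 10000, and lowest in bin 10, at 19.2 ± 9.15. The CD8-fated mean was lowest in bin 4, at 25.4 ± 9.24, and highest in bin 7, at 30.6 ± 9.31. Each of these means is over 6 mice. The CD4-fated mean of bin 10 thus lay below the CD8-fated mean of every bin. Whether the antibody differed between the lineages late in the order was not tested. Of 15 cell cycle genes, 13 passed the filter in CD8-fated mice and 12 of them changed over the bins, where 55.3% of all genes did. Only 3 passed the filter in CD4-fated mice and 0 changed (46.9% of all genes), so the counts are not over the same genes. With cells of 2 or more cell cycle UMIs left out the change of Tfrc in CD8-fated mice no longer passed (adjusted p = 0.17), nor did it in the maturation-score order (0.98).

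Slc7a5 rose in CD8-fated mice, from 1.87 ± 1.71 CPM in bin 1 to 10.96 ± 6.65 in bin 10 (adjusted p = 4.7e-06), and in CD4-fated mice its mean was highest in bin 5, at 13.2 ± 6.20. The CD4-fated genotypes were unlike in this. Both OT-II mice were highest in bin 2, at 21.0 and 38.0 CPM, where AND and MHCI-/- mice were at 0 to 6.87. Slc7a5 was below the filter in the joint fit, and without the filter the lineage-by-bin term passed (adjusted p = 3e-04). Slc1a5 changed over the bins in CD4-fated (adjusted p = 6.6e-04) and CD8-fated mice (6.4e-12), and Slc3a2 in CD4-fated (0.0017) and CD8-fated mice (6.4e-08). The first of the Slc3a2 calls was lost without MHCI-/- replicate 2 and in the maturation-score order (adjusted p = 0.051). The lineage-by-bin term passed for 11 of 14 ribosome biogenesis and polyamine genes, 7 of 12 other transporters, 7 of 12 glycolytic enzymes, 6 of 10 amino acid response genes, 6 of 10 cell cycle genes and 4 of 9 Myc network genes, beside 23.4% of 8056 genes. Over all genes the calls of this term fell from 1888 to 794 in the maturation-score order and to 1015 with cells of 2 or more cell cycle UMIs left out, and the lists were not counted there.

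Genotypes with 2 mice each were not tested and are given as values. Slc3a2 was high in F5 mice, at 113 and 109 CPM in quiescent DP-like cells against 35.0 to 78.1 elsewhere, and at 129 and 134 in mature SP-like cells against 29.1 to 83.6. The AND mice, which share the Rag1-/- background, were at 65.5 and 66.7 in quiescent DP-like cells. CD71 antibody was high in quiescent DP-like cells of both Rag1-/- genotypes, at 61.0 and 43.5 per 10000 in AND and 88.3 and 49.2 in F5, against 15.4 to 26.6 in the other 13 mice. Both genotypes were also the highest in cycling-like cells, at 440 and 159 in AND and 215 and 243 in F5 against 69.4 to 127. Tfrc RNA was at 20.8 to 27.0 CPM in the quiescent DP-like cells of those 4 mice against 5.00 to 47.7 in the others. In AND replicate 2 the antibody filters removed most cells, and the part of this in its CD71 values was not tested.

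In signaled DP-like cells CD71 antibody was at 46.5 and 41.5 per 10000 in AND, 38.8 and 37.2 in OT-I, 39.1 and 21.8 in F5 and 11.5 and 12.2 in OT-II, the lowest of all. The 5 wild-type mice lay between 17.01 and 20.4, and the MHC-deficient mice between 17.9 and 19.6. In mature SP-like cells F5 replicate 1 was at 86.0, F5 replicate 2 at 24.8, OT-I at 47.5 and 29.4 and OT-II, again the lowest, at 10.5 and 9.65. OT-I and OT-II were both in experiment 3. Their signaled DP-like cells had Tfrc RNA at 34.9 and 56.2 CPM in OT-I and 15.2 and 17.9 in OT-II.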

How the data were processed

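RNA and 111 surface proteins were measured by 10x 3′ v3 CITE-seq in 19 lanes from 17 mice. The authors aligned the reads with Cell Ranger 3.1.0 to mm10, and the deposited matrices hold UMI counts, not normalized, for genes and antibodies in the same barcodes. RNA UMIs per lane summed to 9893333 to 43303999.

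From these counts, cells with at least 200 genes, at most 15% mitochondrial UMIs, 1000 to 10000 antibody UMIs and at least 70 antibodies were kept (71941 of 85389 barcodes), and 2824 were removed as doublets from scores against simulated doublets, at 0.8% per 1000 cells. Clusters were made with scanpy 1.11.5 from 2000 genes, 30 principal components, 20 neighbors and Leiden resolution 1 (leidenalg 0.10.2), without the genes described. They were named from marker genes by scores set after the data were seen, and the markers overlap the cell cycle list. The study's totalVI values, annotation and Slingshot order were not used here. Cells were ordered by diffusion pseudotime, those in clusters of the other lineage's branch were left out (482), and the rest were divided into 10 bins.

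Counts were summed per mouse and class (at least 20 cells), per antibody tertile (of classes with at least 30 cells) or per bin (at least 10 cells), and fitted in edgeR 4.0.16 under R 4.3.3 (glmQLFit and glmQLFTest, TMM, filterByExpr, Benjamini-Hochberg adjustment over all features, two-sided), with the mouse as a block. CD4-fated and CD8-fated mice were compared with a covariate for the kind of mouse (Rag1-/- transgenic, MHC-deficient, or OT transgenic). CPM are UMIs per 1000000 UMIs, and correlations used log2(CPM + 1). A sum over cells of 1 mouse is 1 replicate, and floors of 3 counts cover counting error only. In simulated counts with changes of log2 1 and 2, the class test recovered 79% and 88% in 8031 genes, and the lineage-by-bin test 12% and 78% in 7811. The simulation had a fixed dispersion and no mouse effect, and changed only genes above a minimum of summed counts. For the lineage-by-bin test the change grew along the bins and was full only in the last. These rates are not the power for the members.

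The members and gene lists were chosen with earlier results of these data known. The 6 members, Tfrc and CD71 are always named. From each list up to 4 called genes with the largest log2 difference in a comparison could be named, as were the 5 genes most like Myc, and others only where a count of 5 or fewer was given. Alternatives were DESeq2 1.42.0, plain library size, no low-count filter, a higher doublet rate, a minimum of 50 cells, Leiden resolution 0.6, single experiments, no block, a split of an antibody at its median, an order by maturation score, cells with 2 or more cell cycle UMIs left out, and each mouse left out.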

Additional observations from a re-analysis of the deposited data

Results flagged for a closer look

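Of 150 groups of 4 to 10 mice tested for a sample far from the rest (Dixon's test, which chance alone passes in about 1 of 20), 13 held one. Wild-type replicate 5, whose lanes had the lowest medians of UMIs per cell, gave 5 of them. Its Myc in quiescent DP-like cells was 21.5 CPM against at most 4.69 in the other wild-type mice. Its Slc3a2 was low in signaled DP-like cells (64.5 against 134 to 160 CPM), in mature SP-like cells (29.1 against 57.8 to 63.5) and in bin 9 (43.2 against 67.4 to 71.4), and its Tfrc was high in Treg-like cells (44.3 against 6.63 to 14.5).

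Wild-type replicate 1 had Slc3a2 at 115 CPM in NKT-like cells, against 75.3 to 85.2, and Slc1a5 at 72.5 in mature SP-like cells, against 48.2 to 54.1. In wild-type replicate 4 CD71 antibody on myeloid-like cells was at 148 per 10000, against 38.5 to 46.7. Among CD8-fated mice, OT-I replicate 1 stood out in bin 1 for Slc2a1 (29.9 against 15.9 to 19.6 CPM) and in bin 2 for Tfrc (48.4 against 17.7 to 23.1), and OT-I replicate 2 in bin 1 for Tfrc (139 against 16.1 to 49.1). Between Treg-like and mature SP-like cells, the Slc3a2 difference of OT-I replicate 2 was −27.3 CPM against −6.47 to 9.65 in the others, and the Slc1a5 difference of OT-I replicate 1 was 41.9 against −20.7 to −5.18.

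The courses of 3 genes over the pseudotime bins differed between CD4-fated and CD8-fated mice by edgeR's lineage-by-bin test. The adjusted p was 7.1e-04 for Slc2a3, 5.4e-04 for Slc3a2 and 1.2e-07 for Tfrc.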

How the results depend on the processing

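No call of the 6 genes, Tfrc or CD71 changed direction. With no replicate block, that is without the mouse term, 2 of the members passed in cycling-like cells instead of 4, 1 instead of 2 in negative selection-like cells, 0 instead of 1 between CD5 tertiles, 0 instead of 2 between CD69 tertiles and 0 instead of 2 between CD71 tertiles of quiescent DP-like cells. In experiment 3 alone 2 members passed instead of 4 in signaled DP-like cells, 1 instead of 2 in negative selection-like cells, 0 instead of 3 in Treg-like cells, 0 instead of 2 between CD69 tertiles and between CD71 tertiles of quiescent DP-like cells, 0 instead of 1 of the member and bin values, 0 instead of 2 lineage-by-bin terms and 1 instead of 4 changes over the bins in CD4-fated mice. Experiments 1 and 2 alone gave 1 member between the CD71 tertiles and 5 member and bin values instead of 1. Without the low-count filter 4 members passed in negative selection-like cells, 4 between CD69 tertiles and 4 member and bin values. In negative selection-like cells DESeq2, a higher doublet rate and cell cycle cells left out each gave 1. Between CD69 tertiles DESeq2 gave 0 and plain library size 1. With the maturation-score order 0 member and bin values and 1 lineage-by-bin term passed. Calls over all genes fell too, by the counts given further below, so these losses are not read as particular to the members. That holds without the mouse term in negative selection-like cells and between tertiles, and in experiment 3 alone. In experiment 3 alone Myc and Slc2a1 (signaled DP-like cells) and Slc3a2 (CD71 tertiles) were below the filter. For the rest the cause was not tested.

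Leaving out 1 mouse gave 4 to 4 members in cycling-like, 2 to 3 in DN-like, 4 to 5 in signaled DP-like, 2 to 3 in mature SP-like, 1 to 3 in negative selection-like and 2 to 3 in Treg-like cells, 1 to 1 between CD5, 0 to 2 between CD69 and 2 to 2 between CD71 tertiles of quiescent DP-like cells (0 to 0 in the other 2 classes), 1 to 2 member and bin values, 2 to 3 lineage-by-bin terms, 3 to 4 changes over the bins in each lineage and 3 to 4 CD71 differences between classes. Of the single member values so obtained 1114 kept their side of the threshold, 22 lost and 11 gained a call. With cell cycle cells left out CD71 of cycling-like cells gave no value, and RNA of cycling-like and DN-like cells was not fitted.

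The replicate numbers were checked as pairs: deviations of same-numbered mice correlated at 0.381 for AND and F5, 0.0353 for MHCI-/- and MHCII-/- and 0.857 for OT-II and OT-I over 5633 genes. For AND and F5 the number also marks the experiment, and the other pairs lie within 1 experiment each, so the block was kept as an alternative. A replicate block left the member and bin values called at 1 and moved the genes and bins called from 2199 to 3952. Genes called fell without the mouse term from 4320 to 2752 in DN-like, 4433 to 2698 in signaled DP-like, 4067 to 2617 in mature SP-like, 3988 to 2542 in negative selection-like and 2119 to 505 in Treg-like cells, and between tertiles of CD5 from 478 to 38, CD69 from 858 to 81 and CD71 from 1851 to 226, 334 to 0 and 104 to 0. In experiment 3 alone they were 2269, 1894, 1427 and 303 in the signaled DP-like, mature SP-like, negative selection-like and Treg-like comparisons, 239, 352, 953, 61 and 7 between those tertiles, 86 over the bins, 860 for the lineage-by-bin term and 1408 and 3068 for the CD4-fated and CD8-fated courses (3577 and 4712 with all mice). Experiments 1 and 2 alone gave 299 (CD5), 1099, 221 and 54 (CD71) and 4465 over the bins. Over the bins, no family covariate gave 1419, no filter 4589 and cell cycle cells left out 1273. The lineage-by-bin term gave 1015 with those cells left out and 794 in the maturation-score order, instead of 1888. A split at the median gave 61 for CD71 in mature SP-like cells. Antibodies called ranged from 9 to 72 of 111 where they moved by more than 1.5 times. Myc, Slc7a5, Slc2a1 and Slc2a3 fell below the low-count filter in part of the comparisons.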
